A study of Mus musculus with 6 samples.

Results

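The genes described here are those named for the proteins of the cytosolic ribosome. They were chosen by symbol, as every row of the count table that starts with Rpl or Rps followed by a digit, together with Rplp0, Rplp1, Rplp2 and Rpsa. Kinase genes of the Rps6k family and symbols that contain -ps were left out. The choice gave 87 of the 24062 genes in the table, of which 52 are named for proteins of the large subunit and its stalk and 34 for proteins of the small subunit. One of the 34, Rps4l, is annotated as a transcribed processed pseudogene in GENCODE M21. The remaining member, Rps19bp1, meets the rule by its symbol but encodes a protein that binds Rps19 and the deacetylase SIRT1, not a ribosomal protein. The rule leaves out Fau, whose product releases a ribosomal protein from a ubiquitin-like fusion, and which is given with other translation genes further on.

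The RNA came from ovulated eggs arrested at metaphase of the second meiotic division (MII). The 3 groups, of 2 libraries each, were eggs with H3.3R26K-eCFP (R26K), eggs with H3.3K27R-mCherry (K27R) and eggs with H3.3-eGFP (H3.3), the histone variant without a substitution and the reference for both mutants. By their names, the mutants carry lysine in place of arginine (R26K) and arginine in place of lysine (K27R) in the histone tail. All eggs came from super-ovulated females, 8 weeks old, of the line HISRainbow;Figla-iCre. Figla is an oocyte gene, every group carried a tagged H3.3 and the Cre transgene, and eggs were assigned to a group by their colour under a confocal microscope. The number of eggs in a library, and whether replicate libraries came from separate females, are not given in the sources used here, so the p-values speak only of how these libraries vary. In such bulk libraries fewer cells of a type and less RNA per cell cannot be told apart.

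A ribosome holds 1 copy of nearly every ribosomal protein, and most somatic cells transcribe these genes at high and closely matched levels. Their mRNAs are the classical 5′ terminal oligopyrimidine (TOP) mRNAs, which begin with a C followed by a run of pyrimidines and whose translation is tied to growth signals. Growing oocytes build up ribosomes, and fully grown oocytes and eggs are transcriptionally silent and lose or deadenylate many stored mRNAs during maturation. Libraries primed on poly(A) tails, as these were, read an mRNA with a shortened tail less well, so the values describe polyadenylated RNA. Ribosomal protein genes also have many processed pseudogenes, whose sequence can be so close that a 50-base read has no unique place.

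The RefSeq promoter table (build GRCm38.p6) held 66 of the 87 members, and a pyrimidine tract was searched in it on the gene strand, as a C followed by at least 4 C or T that starts within 10 bases of the annotated start. It was found in 40 of the 66 members (60.6%), in 45.6% of the mitochondrial ribosomal protein genes and in 34.4% of all genes of the table. The windows of 30 bases centred on the start are shown for abundant members and for 2 pairs of paralogues on which the levels turn, with the tract in capitals.
Rps27l: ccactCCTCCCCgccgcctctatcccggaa
Rps27: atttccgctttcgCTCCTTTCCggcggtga
Rpl39l: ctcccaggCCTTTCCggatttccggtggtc
Rpl39: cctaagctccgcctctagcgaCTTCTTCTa
Rpl13a: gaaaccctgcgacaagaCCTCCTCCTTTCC
Rps15a: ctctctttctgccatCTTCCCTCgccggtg
Rplp2: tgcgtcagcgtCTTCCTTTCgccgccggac
Rpl15: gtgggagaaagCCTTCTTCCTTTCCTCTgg
Rpl4: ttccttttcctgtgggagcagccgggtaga
Rpl41: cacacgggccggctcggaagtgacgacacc
Rps27l has 2 starts in the table, and the window shown is that of the first, at chr9:66946071-66946100 on the plus strand. The Rps27 window lies at chr3:90213634-90213663 on the minus strand, that of Rpl39l at chr16:10170213-10170242 on the plus strand and that of Rpl39 at chrX:37085208-37085237 on the minus strand. Those of Rpl13a (chr7:45128731-45128760, minus), Rps15a (chr7:118116133-118116162, minus), Rplp2 (chr7:141447636-141447665, plus) and Rpl15 (chr14:18270972-18271001, minus) hold a tract at or near the start. The Rpl4 window (chr9:64173372-64173401, plus) and the Rpl41 window (chr10:128549154-128549183, minus) hold no tract that starts within 10 bases of the annotated start. The Rpl4 window does show a run of pyrimidines near its left end, which starts further upstream than the rule allows. CCGGAAG, a motif that ETS factors bind, was searched on both strands of the whole promoter window and was present in 39.4% of the members, 36.8% of the mitochondrial ribosomal protein genes and 9.93% of all genes.

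Total counts were 39603440 and 33786225 in the R26K libraries, 11557291 and 10803477 in the K27R libraries, against 12748821 and 11452906 in the H3.3 libraries, so the R26K libraries were the deepest. Genes with a count numbered 12135 and 12112 in R26K, 10715 and 7405 in K27R, against 7590 and 7392 in H3.3. The 10 egg markers examined had counts in every library. Of 15 cumulus and granulosa markers, genes of the somatic cells around the egg, 13 and 10 had a count in R26K, 10 and 3 in K27R, against 4 and 9 in H3.3. All 15 summed to 2073 and 1957 CPM (counts scaled to library size) in R26K, 1932 and 1409 CPM in K27R, against 974.5 and 1806 CPM in H3.3. Serpine2 made up most of each sum, with 1910 and 1810 CPM in R26K, 1652 and 1393 CPM in K27R, against 940 and 1239 CPM in H3.3. Without Serpine2, a change made after its values were seen, the other 14 summed to 162 and 147 CPM in R26K, 280 and 15.7 CPM in K27R, against 34.4 and 566 CPM in H3.3. Those highest in H3.3 replicate 2, named after their values were seen, were Tnfaip6 with 186 CPM, Cyp19a1 with 143 CPM, Inha with 97.3 CPM and Akr1c18 with 66.9 CPM there, and all 4 were at 0 in H3.3 replicate 1. Of the same list, Fshr, Foxl2 and Amh were at or under 0.651 CPM in every library, while Cyp11a1 reached 38.2 CPM in K27R replicate 1. The haemoglobin genes, Ptprc and Ovgp1 were at 0. The 10 blood and immune markers summed to 4.29 to 49.4 CPM and the 6 markers of oviduct epithelium and endothelium to 15.4 to 158 CPM per library. Pecam1 made up most of the latter sum in each library, with 15.4 to 156 CPM. Epcam, Krt8 and Krt18 had 4.53, 11.7 and 10.5 CPM in R26K replicate 1 and at most 0.755 CPM elsewhere.

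Reads assigned to ribosomal protein genes were a minor part of these libraries. All 87 genes together took 0.0553% and 0.0549% of the counts in R26K libraries, 0.0985% and 0.0791% in K27R libraries, against 0.0994% and 0.188% in H3.3 libraries. The exact (Clopper-Pearson) 95% intervals for counting error ran from 0.0541% to 0.0560% over both R26K libraries, from 0.0774% to 0.1003% over both K27R libraries and from 0.0977% to 0.190% over both H3.3 libraries. The R26K libraries lay below the other 4, while the K27R libraries lay below both H3.3 libraries by a margin smaller than the gap between those 2. As means the share was 0.0551% ± 0.000297 in R26K, 0.0888% ± 0.0137 in K27R, against 0.144% ± 0.0625 in H3.3 (SD, n = 2 each). With 2 libraries against 2 an exact permutation test of a single value cannot reach p = 0.05, and no test was made of a sum over the members. The mitochondrial ribosomal proteins, a family of 77 genes that make the ribosome of another compartment, took more of every library, with 0.199% and 0.198% in R26K, 0.253% and 0.285% in K27R, against 0.275% and 0.304% in H3.3. The R26K mean was 0.383 times the H3.3 mean for the cytosolic family and 0.687 times for the mitochondrial family, and the K27R mean was 0.618 and 0.928 times the H3.3 mean. Where reads with several places were dropped or split, a family with much shared sequence would be undercounted, so the share of the cytosolic family, also beside the mitochondrial one, may be too low; this was not tested.

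Both subunits followed the same order of groups in their means. Large-subunit genes took 0.0244% and 0.0258% of the counts in R26K, 0.0475% and 0.0340% in K27R, against 0.0471% and 0.0812% in H3.3. Small-subunit genes took 0.0280% and 0.0229% in R26K, 0.0501% and 0.0441% in K27R, against 0.0517% and 0.102% in H3.3. One gene, Rps27l, supplied 34.2% and 20.0% of the family's counts in R26K, 24.3% and 36.0% in K27R, against 27.1% and 24.4% in H3.3. Without it the family took 0.0364% and 0.0439% of the counts in R26K, 0.0745% and 0.0507% in K27R, against 0.0725% and 0.142% in H3.3, so R26K libraries remained below the other 4. H3.3 replicate 2 had the highest share within its group and also more of the granulosa markers, and K27R replicate 1 stood above K27R replicate 2 in both. Across all 6 libraries the orders of share and of markers differed in part. The R26K libraries had the lowest share, and their markers without Serpine2 summed to 162 and 147 CPM. That was above the 15.7 CPM in K27R replicate 2 and the 34.4 CPM in H3.3 replicate 1. It was below the 280 CPM in K27R replicate 1 and the 566 CPM in H3.3 replicate 2. The part of these markers in the result was not tested.

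**Figure D1:**
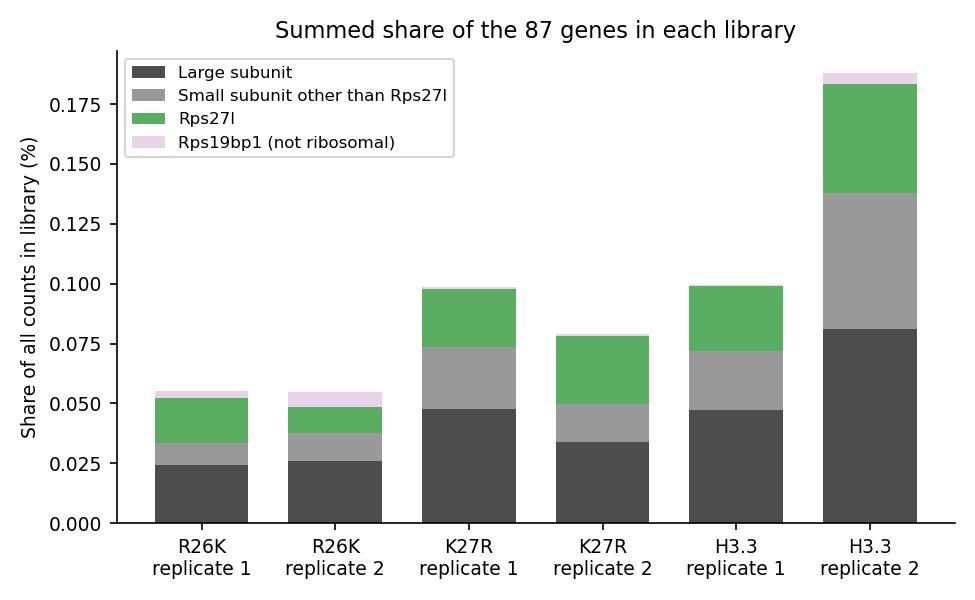
Share of all counts taken by the 87 genes in each library, in percent of the library total, as bars stacked from large-subunit genes, small-subunit genes other than Rps27l, Rps27l and Rps19bp1, with R26K, K27R and H3.3 from left to right. The R26K bars reach 0.0553% and 0.0549%, below the other 4, and the H3.3 bars reach 0.0994% and 0.188%.

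The family was also unevenly detected. A count in every library was found for 43 members, and 6 members (Rpl26, Rpl9, Rpl3l, Rps27rt, Rps27 and Rpl10a) had none in any. Members with a count numbered 73 and 78 in R26K, 71 and 48 in K27R, against 61 and 65 in H3.3. After thinning each library to 10803477 counts these became 67 and 72 in R26K, 71 and 48 in K27R, against 59 and 65 in H3.3. At a level of at least 1 CPM the order changed, with 35 and 41 members in R26K, 51 and 34 in K27R, against 44 and 53 in H3.3. The R26K libraries thus had the most members with a count as deposited, but after thinning R26K replicate 1 lay below K27R replicate 1, and at 1 CPM or more the groups overlapped. Of the 77 mitochondrial ribosomal protein genes, 77 and 77 had a count in R26K, 67 and 46 in K27R, against 50 and 48 in H3.3. For a gene without counts, 3 counts per library bound its level at 0.0813 CPM in the deepest library and 0.285 CPM in the shallowest.

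**Figure D2:**
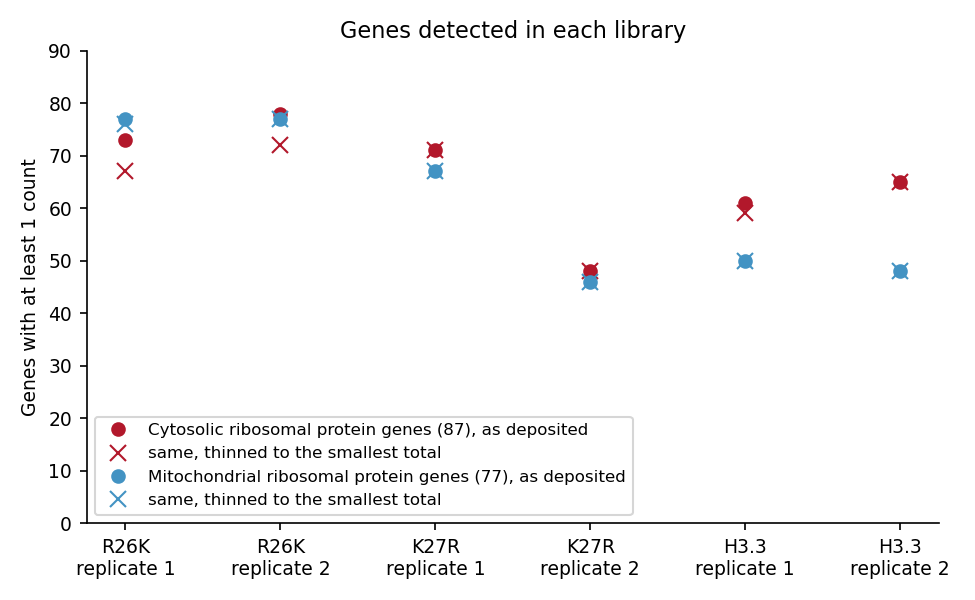
Number of genes with at least 1 count in each library, R26K, K27R and H3.3 from left to right, for the 87 cytosolic and the 77 mitochondrial ribosomal protein genes, as deposited (dots) and after thinning to 10803477 counts (crosses). R26K libraries hold 73 and 78 cytosolic members as deposited and 67 and 72 after thinning, and K27R replicate 2 holds 48 in both.

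Levels within the family ran from 0 to 445 CPM, in TMM-scaled values (a scaling between libraries by their trimmed mean ratio). A mean of at least 10 CPM was reached by 19 members, 29 lay from 1 to 10 CPM, 22 from 0.1 to 1 CPM and 11 under 0.1 CPM but above 0. Rps27l, the paralogue of Rps27 and in other tissues a target of p53, led with 203 and 112 CPM in R26K, 225 and 291 CPM in K27R, against 262 and 445 CPM in H3.3. It ranked 729 in the whole table, and the second member, Rpl4, ranked 2130. Rps27l lies at chr9:66946086-66949516 on the plus strand (build GRCm38, GENCODE M21 annotation). Per kilobase of its principal transcript Rps27l averaged 514 CPM, against 85.2 for Rps14, 80.0 for Rpl32, 50.1 for Rpl4 and 46.9 for Rpl13a. Levels per kilobase thus set the paralogue Rps27l well apart from the other named genes, which lay from 46.9 to 85.2.

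**Figure D3:**
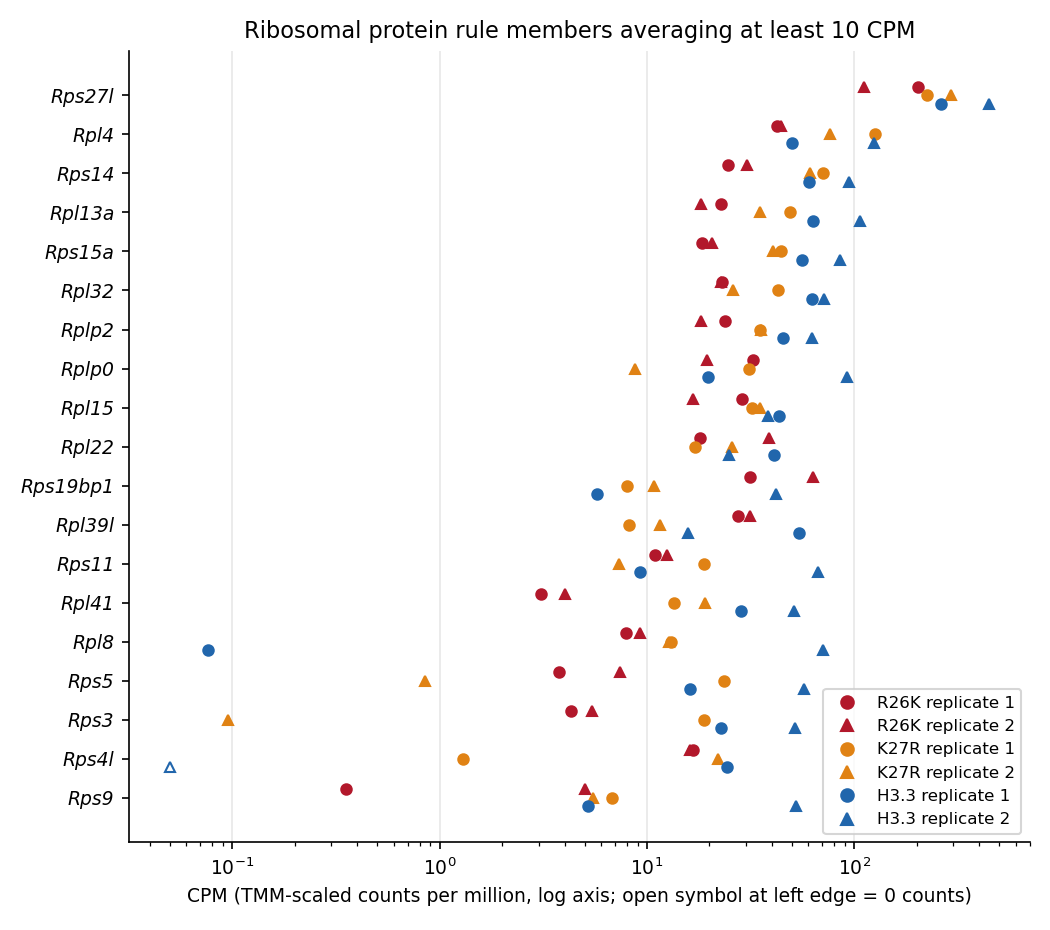
Level of the 19 members with a mean of at least 10 CPM in every library, as TMM-scaled CPM on a log axis, with R26K, K27R and H3.3 by colour and replicates by shape; an open symbol at the left edge stands for 0 counts. Rps27l lies above all others, and for Rpl41, Rpl13a and Rps15a both R26K points lie below the other 4.

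The sequence shared with pseudogenes was measured next. For each member the share of 50-base windows of its principal transcript that also occur, letter for letter, in a transcript of a gene at another locus was counted in GENCODE M21. The median share was 43.2% over the 87 members and 0 over the mitochondrial family, and 36 members shared more than 50% of their windows. The median number of pseudogenes with a shared window was 8, and the highest was 120, for Rpl7a, a large-subunit protein. How reads that map to several places were counted is not given in the sources used here.

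Members with more shared sequence had lower levels. In the 29 members with the least sharing (0 to 33% of windows) the median level was 13.4 CPM per kilobase and 16 reached 10 CPM. In the middle 29 (33.8% to 59.9%) the median was 2.34 CPM per kilobase and 3 reached 10 CPM. In the 29 with the most (60.0% to 98.6%) it was 0.224 CPM per kilobase, none reached 10 CPM and 24 were under 1 CPM. Over the 87 genes, Spearman's rho between shared windows and CPM per kilobase was -0.53, and -0.37 when levels were divided by the length that is not shared. These are correlations across genes of the same libraries and are given as a description. Rps27, the small-subunit gene with 98.6% of its windows shared, had no count anywhere, while Rps27l, with 22.4% shared, led the family. Rpl3l, a paralogue known from heart and skeletal muscle, had 0% shared and also no count.

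**Figure D4:**
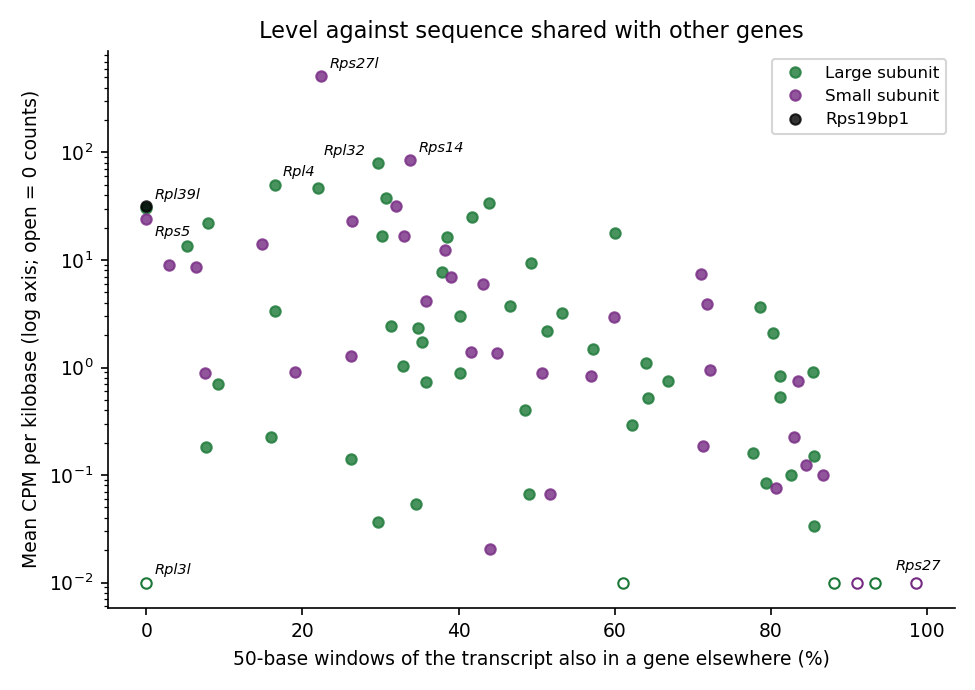
Mean level of each of the 87 genes, in CPM per kilobase of transcript on a log axis, against the share of its 50-base windows that occur in a gene elsewhere, in percent, coloured by subunit. Open points at the lower edge have 0 counts, among them Rps27 at 98.6% and Rpl3l at 0%, and Spearman's rho over the 87 genes is -0.53.

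Several members come as pairs of paralogues, and in several the copy with the larger level was not the classical one. In these pairs the classical copy also shared more of its windows with other loci, 98.6% for Rps27 against 22.4% for Rps27l, 85.5% for Rpl36a against 46.5% for Rpl36al, 72.2% for Rps4x against 14.9% for Rps4l and 16.5% for Rpl39 against 0% for Rpl39l. In other pairs the copy with more sharing was higher in mean level. These were Rpl7 (53.3%, 3.70 CPM) against Rpl7l1 (9.19%, 1.84 CPM) and Rpl3 (85.6%, 4 counts) against Rpl3l (0%, no count). Rpl10 (85.4%) against Rpl10l (7.60%) went the same way. For Rpl22 (5.19%) against Rpl22l1 (57.3%) the copy with less sharing was higher. The part of this sharing in the order of the copies was not tested. Rpl39l, a paralogue of the large-subunit gene Rpl39 known from the testis, had 27.5 and 31.4 CPM in R26K, 8.21 and 11.6 CPM in K27R, against 54.0 and 15.8 CPM in H3.3. Rpl39 had 0.515 and 0.996 CPM in R26K, 1.38 and 0 CPM in K27R, against 2.91 and 6.62 CPM in H3.3. Rpl39l exceeded Rpl39 in every library, and both of its K27R libraries lay below the other 4. Rps4l had 16.6 and 16.1 CPM in R26K, 1.3 and 22 CPM in K27R, against 24.2 and 0 CPM in H3.3, so replicates of K27R and of H3.3 differed more than the groups. Its X-linked counterpart Rps4x stayed between 0.0302 and 3.22 CPM. Rpl22, a large-subunit gene with 5.19% shared, had 17.9 and 38.7 CPM in R26K, 17.1 and 25.6 CPM in K27R, against 40.9 and 24.8 CPM in H3.3, and these groups overlapped.

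The other pairs were scarce. Rpl22l1 was found in 3 libraries and reached 3.56 CPM in H3.3 replicate 2. Rpl7 reached 15 CPM and Rpl7l1 8.23 CPM, both in H3.3 replicate 2, and neither exceeded 2.60 CPM in any R26K or K27R library. Rpl10, with 85.4% of its windows shared, had at most 1.95 CPM. Rpl10l, a copy known from the testis, had 37 counts in R26K replicate 2 and none elsewhere. Rpl36al had 2.87 and 2.11 CPM in R26K, 1.3 and 1.42 CPM in K27R, against 3.98 and 0 CPM in H3.3, while Rpl36a stayed at or below 0.181 CPM. Rpl3 had 4 counts and Rpsa, also known as the laminin receptor, 3 counts over the 6 libraries.

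Among the rows set aside for their -ps symbols, Rpl14-ps1 had 11.7 and 9.63 CPM in R26K, 41.1 and 29.6 CPM in K27R, against 23.0 and 30.5 CPM in H3.3. The parent gene Rpl14 had 4.85 and 3.62 CPM in R26K, 17.9 and 12.5 CPM in K27R, against 7.58 and 10.6 CPM in H3.3. For both rows the R26K libraries were the lowest and K27R replicate 1 the highest. Rps15a-ps4 had 148 and 148 counts in R26K, 53 and 14 in K27R, against 21 and 49 in H3.3. With the depth of each library considered, its R26K libraries were not the lowest, unlike those of Rps15a.

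Set against H3.3 eggs, R26K eggs had lower ribosomal protein levels in most members, yet no member passed the test. Of 57 members that passed edgeR's filter on low counts, 0 were higher and 0 lower in R26K (adjusted p under 0.05, quasi-likelihood test, Benjamini-Hochberg over 10667 genes), where 0.403% of all tested genes were higher and 0.216% lower. At an unadjusted p under 0.05, 4 members were lower and 0 higher, against 4.14% of all genes lower and 17.6% higher. The fitted log2 fold change was below 0 for 49 of the 57 members, against 38.7% of all tested genes, with a median of -1.54, against 0.66 over all tested genes. Both R26K libraries lay below both H3.3 libraries for 29 of the 57 members, against 15.3% of tested genes, and above them for 2, against 44.8%. Since a member could pass the filter through 1 high group, the means of all 87 were also compared: R26K was lower for 59, higher for 22, and 6 had no count. Of the members with counts 72.8% were lower, against 33.8% over the table.

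The 5 members with the smallest p were all lower in R26K in value. Rpl13a, a large-subunit protein, had 22.9 and 18.2 CPM in R26K and 63.1 and 106 CPM in H3.3, a log2 fold change of -2.04 ± 0.75 (SE; edgeR adjusted p = 0.213). Rps27l had a log2 fold change of -1.17 ± 0.44 (edgeR adjusted p = 0.213), which was -0.39 once GC content and length were corrected for and -0.74 without H3.3 replicate 2. Rpl41, the smallest ribosomal protein, had 3.06 and 4.02 CPM in R26K and 28.5 and 51.3 CPM in H3.3, a log2 fold change of -3.49 ± 1.38 (edgeR adjusted p = 0.218). In each of these 3 genes both R26K libraries lay below both H3.3 libraries. Rps15a, a small-subunit protein, had 18.4 and 20.6 CPM in R26K and 56.1 and 85.5 CPM in H3.3 (log2 fold change -1.86 ± 0.76, edgeR adjusted p = 0.228). Rps14, which lies in the platform of the small subunit, had 24.6 and 30.5 CPM in R26K and 60.5 and 93.8 CPM in H3.3 (-1.49 ± 0.66, edgeR adjusted p = 0.246). Rpl13a shares exon positions with another annotated gene, and the libraries do not mark the strand, so its reads could in part belong to that gene.

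With DESeq2 and its own size factors, 3 of the 57 tested members were lower in R26K than in H3.3: Rpl41 (log2 fold change -3.59, adjusted p = 0.00335), Rpl13a (-2.14, adjusted p = 0.0176) and Rps15a (-1.96, adjusted p = 0.0275). DESeq2 called 1218 genes (11.4%) higher and 426 (3.99%) lower over the whole table in the same comparison. The median of the members depended on H3.3 replicate 2: without that library it was -0.58, against 2.12 over all genes, with 38 of 59 tested members below 0, and without H3.3 replicate 1 it was -2.13.

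Among the 19 members with a mean of at least 10 CPM, 17 had a fold change below 0 in R26K against H3.3. Over all tested genes at that level it was 2940 of 6142. The median was -1.49 for the members, against 0.08 over all tested genes at that level. A member could reach this mean through 1 high group, as Rpl41 did with a mean of 3.54 CPM in R26K and 39.9 CPM in H3.3. In 10 of the 19 both R26K libraries lay below all 4 others: Rpl4, Rpl13a, Rpl15, Rpl32, Rpl41, Rplp2, Rps9, Rps14, Rps15a and Rps27l. The same was seen for 18 of the 57 tested members (31.6%) and for 8.55% of all tested genes, at any level. At 10 CPM or more, both R26K libraries lay below both H3.3 libraries in 63.2% of the members and 23.1% of all tested genes. Rpl32, a large-subunit protein, had 23.0 and 22.9 CPM in R26K, 42.7 and 26.1 CPM in K27R, against 62.4 and 71.0 CPM in H3.3. Rpl15, in the core of the large subunit, had 28.8 and 16.7 CPM in R26K, 31.9 and 35.0 CPM in K27R, against 43.1 and 38.5 CPM in H3.3. Each of these genes kept its R26K libraries lowest and its H3.3 libraries highest. Both are among the 16 members whose exons overlap those of another coding gene (Cand2 for Rpl32, Nkiras1 for Rpl15), and reads on the other strand could not be told apart.

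The stalk proteins Rplp0, Rplp1 and Rplp2, which recruit translation factors to the large subunit, differed in how close their replicates were. Rplp2 had 23.8 and 18.2 CPM in R26K, 35.1 and 35.5 CPM in K27R, against 45.4 and 62.4 CPM in H3.3, with no overlap between the 3 groups. Rplp1 had 3.99 and 3.05 CPM in R26K, 5.53 and 6.74 CPM in K27R, against 8.26 and 26 CPM in H3.3, again without overlap. Rplp0, the stalk base, had 32.3 and 19.5 CPM in R26K, 31.0 and 8.73 CPM in K27R, against 19.7 and 92.3 CPM in H3.3, so its replicates differed more than its groups. None of the 3 passed the test in any comparison.

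K27R eggs differed from H3.3 eggs by less in value. Of the 57 tested members, 0 were higher and 0 lower by edgeR, as were 0% of all tested genes, and 0 members had an unadjusted p under 0.05 in either direction, against 6.05% of tested genes higher and 1.07% lower. DESeq2 called 0 members as well, with 533 genes (5%) higher and 152 (1.42%) lower over the table. The log2 fold change was below 0 for 44 of 57 members, against 42.2% of tested genes, with a median of -0.79, against 0.12 over all genes. Both K27R libraries lay below both H3.3 libraries for 17 members (9.62% of tested genes) and above for 4 (15.9%). Over all 87 genes the K27R mean was lower for 55 and higher for 23, which makes 70.5% lower, against 42.4% over the table. The median was 0 without H3.3 replicate 2, with 29 of 59 tested members below 0, and -1.63 without K27R replicate 1.

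Of the 5 members with the smallest p in this comparison, 2 had no count in H3.3. These were Rps27a, a ubiquitin fusion of the small subunit, and Rpl38, of the large subunit. Rps27a had 31 and 0 counts in K27R and Rpl38 14 and 0 counts, so a single K27R library supplied both. Rpl5, which carries 5S rRNA into the large subunit, had 1.71 and 2.09 CPM in K27R, against 0.383 and 0.339 CPM in H3.3 (log2 fold change 2.37 ± 1.53, edgeR adjusted p = 0.583). Rpl39l (-1.82 ± 1.22, edgeR adjusted p = 0.607) and Rps29 (-2.69 ± 1.83, edgeR adjusted p = 0.616) were lower in value in K27R. Rps29 had 0.569 and 0.569 CPM in K27R, against 4.52 and 2.88 CPM in H3.3.

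Between the mutants, K27R eggs had higher values than R26K eggs for most members. No member passed edgeR's test in either direction, where 0.169% of tested genes were higher and 0.206% lower in K27R. At an unadjusted p under 0.05 there were 0 members, against 3.43% of tested genes higher and 9.82% lower. DESeq2 called 0 members, beside 249 genes (2.33%) higher and 510 (4.78%) lower. The log2 fold change was below 0 for 15 of 57 members, against 58.1% of tested genes, and its median was 0.84, against -0.32 over all genes. Both K27R libraries lay above both R26K libraries for 23 members (17.5% of tested genes) and below for 3 (36.3%). Without K27R replicate 1 the median was -0.62, against -2.43 over all genes, so its direction rested on that library. The comparisons share libraries, and their values are given side by side only.

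Named by the smallest p, Rpl5 had 1.71 and 2.09 CPM in K27R, against 0.136 and 0.242 CPM in R26K (log2 fold change 3.29 ± 1.58, edgeR adjusted p = 0.472). Rps14 had 70.3 and 61.3 CPM in K27R against 24.6 and 30.5 CPM in R26K (1.26 ± 0.65, edgeR adjusted p = 0.522). Rpl4, at the polypeptide exit tunnel, had 125 and 76.2 CPM in K27R against 42.3 and 44.1 CPM in R26K (1.22 ± 0.66, edgeR adjusted p = 0.546). In all 3 genes both K27R libraries stood above both R26K libraries. Rpl41 followed with 13.5 and 19 CPM in K27R against 3.06 and 4.02 CPM in R26K (2.19 ± 1.3, edgeR adjusted p = 0.612). Rps19bp1, the member that is no ribosomal protein, went the other way, with 8.05 and 10.8 CPM in K27R against 31.3 and 63.4 CPM in R26K (-2.33 ± 1.37, edgeR adjusted p = 0.602).

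**Figure D5:**
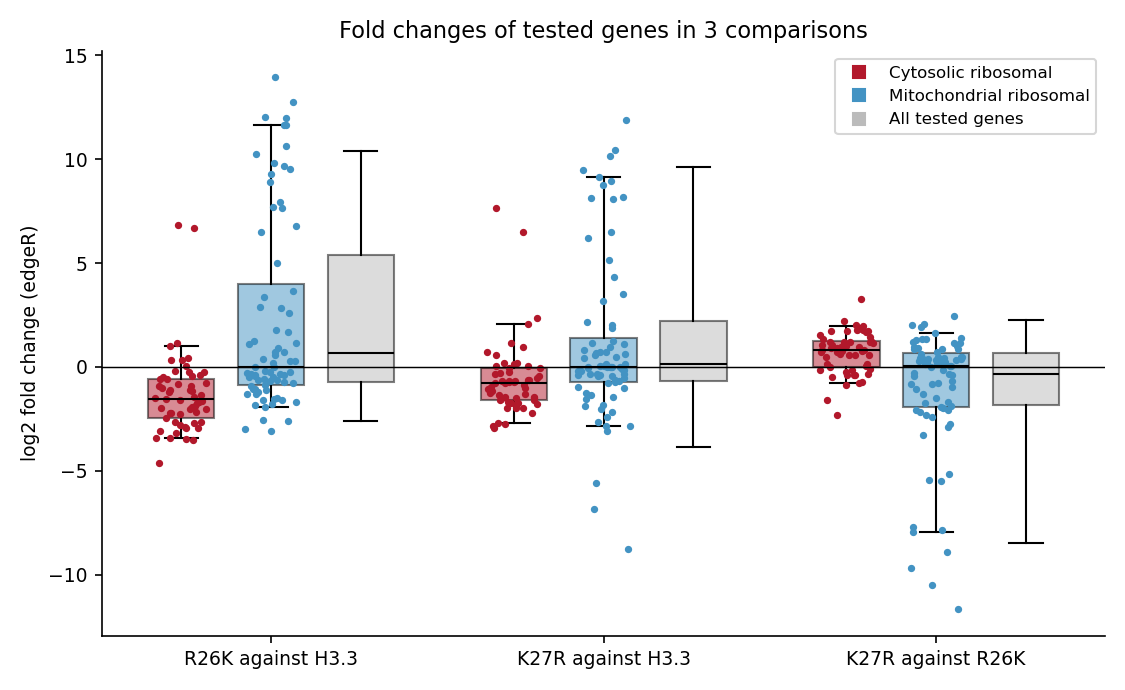
Fitted log2 fold change in R26K against H3.3, K27R against H3.3 and K27R against R26K for the tested cytosolic (57) and mitochondrial (76) ribosomal protein genes, with 1 point per gene, and for all 10667 tested genes; boxes span the quartiles with the median as a line and whiskers running from percentile 5 to percentile 95. Medians of the cytosolic genes are -1.54, -0.79 and 0.84, and values far from 0 include genes without counts in 1 group, whose fitted values depend on edgeR's prior count.

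The spread between replicates was uneven across the family. Of the 19 members at 10 CPM or more, replicates lay within 2-fold of each other for 16 in R26K, 14 in K27R, against 9 in H3.3. H3.3 replicate 2 was the highest of the 6 libraries for 13 of the 19. Wide gaps between replicates were seen in Rps3, a small-subunit protein at the mRNA entry, with 18.8 and 0.0949 CPM in the K27R libraries, and Rpl8, at the centre of the large subunit, with 0.0765 and 70.3 CPM in the H3.3 libraries (chosen after their values were seen). Such gaps within a group exceed the median differences between groups.

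Values below 0 were found at each degree of sequence sharing. In R26K against H3.3 the median log2 fold change was -1.58 in the 29 members with the least sharing, with 21 of 24 tested members below 0. It was -1.60 in the middle 29 (18 of 23) and -0.98 in the 29 with the most (10 of 10). For K27R against H3.3 these medians were -0.98, -0.69 and -0.80.

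Other genes of the translation machinery were read from a list of 20, all tested. In R26K against H3.3, 0.216% of all tested genes passed the test as lower and 0.403% as higher. Of the 20, 0 were higher, and 1 passed and was lower. This was Npm1, a nucleolar chaperone of ribosome assembly, with 142 and 121 CPM in R26K and 611 and 617 CPM in H3.3 (log2 fold change -2.22, edgeR adjusted p = 0.0329). In K27R against H3.3 and in K27R against R26K, 0 of the 20 passed. Over all tested genes 0% passed in the first, and 0.169% higher and 0.206% lower in the second. Over the 20, the log2 fold change in R26K against H3.3 was below 0 for 14 and above 0 for 6, with a median of -0.38. Of all tested genes 38.7% were below 0, and their median was 0.66. Their mean share of the counts in R26K was 0.46 times that in H3.3. Fau, which encodes a small-subunit protein, had 3.99 and 4.83 CPM in R26K, 7.40 and 11.8 CPM in K27R, against 13.7 and 13.8 CPM in H3.3, in the same order of groups as Rplp2. Gnb2l1, the scaffold protein Rack1 on the small subunit, had 228 and 221 CPM in R26K, 234 and 244 CPM in K27R, against 218 and 260 CPM in H3.3, and the groups overlapped. Of 60 ribosome assembly and RNA polymerase I genes, 51 were tested and 0 passed in any of the 3 comparisons. In R26K against H3.3 their median log2 fold change was 0.07, and that of the 76 tested mitochondrial ribosomal protein genes was -0.01. Both lay below the 0.66 over all tested genes.

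The members also had a feature that the choice by symbol did not use. A small nucleolar RNA gene lay inside 30 of the 87 members (34.5%), against 2.06% of protein-coding genes in the table.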

How the data were processed

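Sample titles gave the groups and replicate numbers. The SMARTer kit for low RNA input and Nextera tagmentation, which keeps no strand mark, gave libraries that were read as single 50-base Illumina reads, per the labels. The tools, per the submitters' processing notes, were featureCounts, SAMtools 1.3, TopHat2 2.1.0 and cutadapt 1.9.1 with build mm10. How multi-mapping reads were treated is not stated in these sources. The authors deposited raw integer counts for each gene in 6 columns; 0 columns were left out.

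From these counts, CPM were computed with TMM scaling. Differences were tested with edgeR 4.0.16 (R 4.3.3; filterByExpr, glmQLFit, glmQLFTest, 1 fit of 6 libraries, 3 residual degrees of freedom), two-sided, with Benjamini-Hochberg adjustment over 10667 genes and a threshold of 0.05. The SE of a fold change was its size over the root of F. The edgeR step was tested on simulated data for R26K against H3.3, with a spread well below that of these libraries, so it checks the code and not the power. Alternatives were DESeq2 1.42.0, other scalings and filters, a replicate block, a GC and length correction and left-out libraries. Named genes were the most abundant members, those with the smallest p, stalk proteins, paralogue pairs and members whose groups did not overlap. The members and lists were chosen with earlier results of these data known. Intervals and floors cover counting error only. The values of 1 gene of the translation list are not reported here.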

Additional observations from a re-analysis of the deposited data

How the results depend on the processing

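The count of members passing the test was 0 in each direction under every edgeR setting tried. DESeq2 raised it in 1 comparison, to 3 of 57 tested members lower in R26K against H3.3. It called 3.99% of all tested genes lower there. The median log2 fold change of the members lay from -2.13 to -0.58 for R26K against H3.3 and from -1.63 to 0 for K27R against H3.3 with 1 library left out. For K27R against R26K it lay from -0.62, without K27R replicate 1, where the main value was 0.84, to 1.12; the cause was not tested. Other scalings moved the median of all genes in R26K against H3.3 (0.66 by TMM, 0.57 by RLE and 0.47 by upper quartile) and that of the members (-1.54, -1.63 and -1.74). With the GC and length correction the members' median was -1.99, and Rps27l was -0.39, Rpl13a -3.13, Rpl41 -4.56, Rps15a -2.17 and Rps14 -2.35 in that comparison. The mean R26K share was 0.0565% with -ps rows, 0.0577% of the TMM-scaled total, 0.0401% without Rps27l and 0.0505% without Rps19bp1, and the K27R share without Rps27l was 0.0626%; leaving out Rps27l or Rps19bp1 was chosen after the data were seen. At 1 CPM, 35 and 41 members were detected in R26K. Differences between replicates 1 and 2 showed no common pattern between groups (correlations across genes -0.0147, -0.00711 and 0.0066). These values cannot tell whether libraries of the same number were made together. With the replicate block the medians were -1.45, -0.62 and 0.74, and 0 members passed; over all genes 195 were higher and 65 lower in R26K against H3.3 (43 and 23 without it), 0 and 0 in K27R against H3.3, and 61 and 134 in K27R against R26K (18 and 22 without it). Depth limits statements on members under 0.285 CPM.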

Other observations

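Over the 19 members with a mean of at least 10 CPM, log2 levels (CPM plus 0.5) gave a Pearson correlation of 0.892 between the R26K libraries, 0.513 between the K27R libraries and 0.165 between the H3.3 libraries. K27R replicate 1 and H3.3 replicate 2 correlated at 0.834. These are descriptions across genes, which are not independent replicates.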
